A study of Xenopus tropicalis with 12 samples.

Results

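The ventral marginal zone (VMZ) and the vegetal mass were compared in early gastrula embryos of the frog Xenopus tropicalis. The VMZ is the equatorial belt on the side away from the organizer and is enriched in ventral mesoderm, and the vegetal mass is the yolky bottom of the embryo and is enriched in endoderm. These are 4 of the 12 libraries of the series, 1 from each region in each of 2 clutches of wild-type embryos, and they were chosen by their labels alone. The other libraries hold the lateral marginal zone (LMZ), dorsal marginal zone (DMZ), animal cap and whole embryos, staged on the labels as 10 to 10.25. Fragments were cut by hand from embryos with no treatment and pooled within a clutch before polyA+ RNA was sequenced. The vegetal mass was taken whole, so that it holds its dorsal part, next to the organizer, as well as its ventral part. The replicate number names the clutch, and the regions of 1 clutch came from sibling embryos.

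A belt of cells around the equator of the frog gastrula forms mesoderm under Nodal, FGF and Wnt signals. BMP signals, high on the ventral side and blocked by antagonists from the organizer on the dorsal side, pattern that belt. The T-box factor t (brachyury), the caudal genes cdx1, cdx2 and cdx4, and the Ventx, Msx and Evx homeobox repressors are known markers of ventral and posterior mesoderm. In the vegetal mass, maternal vegt and Nodal signals turn on Mix and Bix homeobox genes, Gata factors and sox17, which specify endoderm. Transcription factors (TFs) were taken from the catalogue made for the study, and 1197 of its 1240 TFs have a gene model in the deposited tables. Levels are given as TPM, the share of a gene's transcripts in a library, corrected for transcript length. Differences are the log2 ratio of VMZ to vegetal mass, with the standard error, from edgeR's quasi-likelihood test with the clutch as a block. The Benjamini-Hochberg adjustment ran over 15727 genes, and a gene with an adjusted p under 0.05 is called higher or lower.

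Of the 915 TFs tested, 136 were higher and 179 were lower in the VMZ than in the vegetal mass. These are 14.9% and 19.6% of the TFs, beside 12.7% of all genes in each direction (1991 higher and 1997 lower). When the means also had to be 2-fold or more apart, with 1 TPM or more in the higher region, 67 TFs were higher (7.32%, beside 4.08% of all genes) and 119 were lower (13.0%, beside 6.58% of all genes). The median size of the log2 difference was 0.526 over TFs and 0.366 over all genes tested. All 136 and all 179 TFs had the same order in both clutches. Of the 67 and the 119, 66 and 110 did not overlap between the regions. For a TF named below, such order or separation therefore adds little to its call. Of the 67 TFs, 20 had their highest regional mean in the VMZ, 6 in the LMZ, 9 in the DMZ and 32 in the animal cap. Of the 119, 108 were highest in the vegetal mass, 9 in the DMZ and 2 in the animal cap. The TFs were chosen by VMZ and vegetal mass levels, so the 67 could not peak in the vegetal mass nor the 119 in the VMZ. These peaks are counts only, with no share over all genes beside them. Of the 67, 1 was called higher in the VMZ than in the LMZ, also with no such share. A highest mean in the VMZ therefore does not set it apart from the LMZ. Without the block, which takes out what is common to a clutch, 27 TFs were higher and 31 lower. Without VMZ replicate 1, 76 were higher and 86 lower, and without VMZ replicate 2, 87 were higher and 90 lower. Without vegetal mass replicate 1 the balance turned, with 200 higher and 172 lower, and 96 higher and 93 lower among those 2-fold or more apart. Without vegetal mass replicate 2, 106 were higher and 168 lower. Of all genes called, 49.9% were higher in the VMZ, and 38.3% when counts were scaled by library size alone. Of TFs called, 43.2% were higher, and 36.6% by library size alone. By limma on log2(TPM + 1), 37.7% of TFs called were higher, beside 39.4% of genes, and on log2(TPM + 0.1), 40.7% beside 42.0%. The lean of TFs to the vegetal mass beyond that of all genes was thus smaller in these settings.

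**Figure D1:**
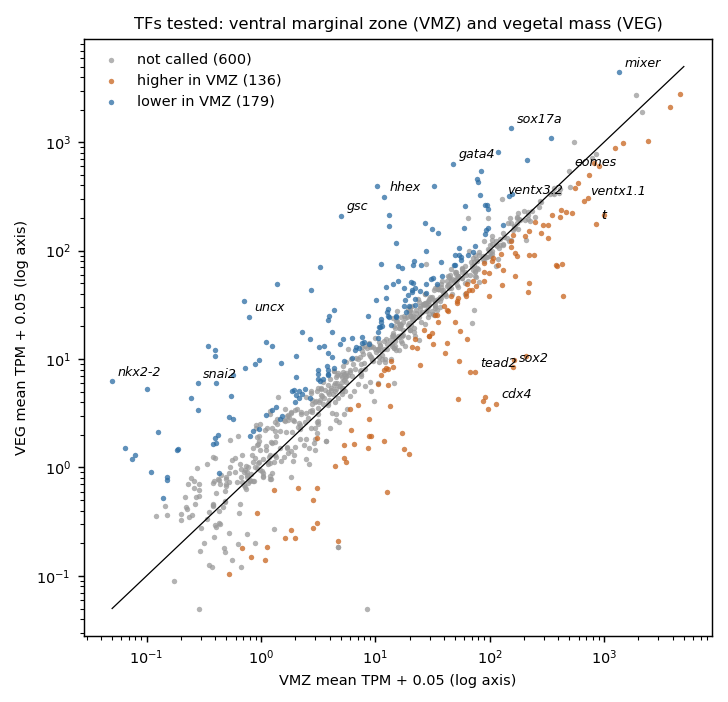
Mean TPM of the 915 TFs tested in the VMZ (x axis) and in the vegetal mass (y axis), each with 0.05 TPM added, on log axes. Points are single TFs, orange where higher in the VMZ (136), blue where lower (179) and grey where not called (600), and the line marks equal levels. cdx4 and sox2 lie far to the right of the line, gsc, hhex and gata4 far above it, and eomes close to it.

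Total expected counts were 27551768 and 16588622 in the 2 VMZ libraries and 28403752 and 16561057 in the vegetal mass libraries, with replicate 1 given first here and in all pairs of values that follow. In these bulk libraries, fewer cells of a type and less RNA per cell cannot be told apart. Of 17 tested mesoderm TFs, 3 were higher in the VMZ, 2 were lower and 12 were not called. Of 17 endoderm TFs, 14 were lower and 0 higher, beside 12.7% of all genes called in each direction. uncx and gpbp1, both among the 14, were named by the study for their vegetal levels in these same libraries. Their calls therefore say nothing about the region names. Marker TFs picked from these and other lists were set beside the region names. t was at 893 and 814 TPM in the VMZ and at 173 and 180 TPM in the vegetal mass, and sox17a was at 193 and 116 TPM in the VMZ and at 1233 and 1470 TPM in the vegetal mass. The organizer gene gsc, at 6.48 and 3.55 TPM in the VMZ, was at 310 and 470 TPM in the DMZ. Marker TFs of other regions were detected in the fragments, and whether they came from carried-over tissue was not tested. The summed TPM of 19 ectoderm marker TFs was 2726 and 4037 in the VMZ, against 1196 and 1074 in the vegetal mass and 4827 and 6179 in the animal cap. The summed TPM of 10 organizer marker TFs was 777 and 466 in the VMZ, against 2015 and 1983 in the vegetal mass and 2594 and 2876 in the DMZ.

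**Figure D2:**
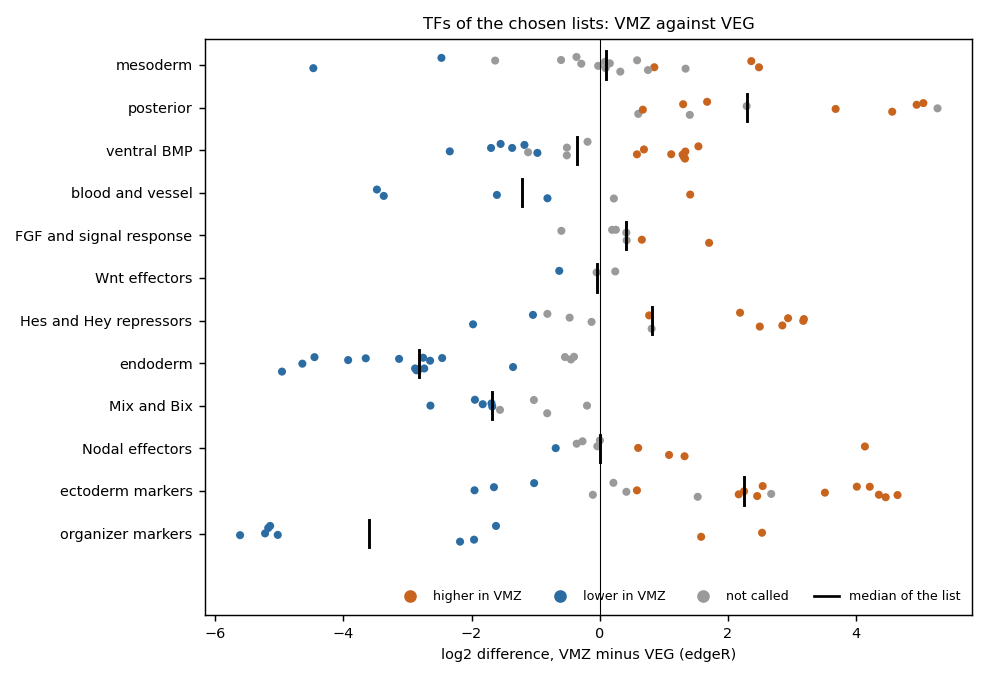
Log2 difference, VMZ minus vegetal mass, of each tested TF in 12 lists, with orange for higher in the VMZ, blue for lower and grey for not called. Black bars are list medians, which lie at 2.29 for posterior TFs, 2.25 for ectoderm markers, -2.82 for endoderm TFs and -3.60 for organizer markers, beside -0.0086 over all genes tested.

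Of 17 tested mesoderm TFs in a list of 20, 3 were higher in the VMZ, 2 were lower and 12 were not called. The median log2 difference was 0.09 (all genes, -0.0086, with 12.7% called in each direction). The difference in t, which drives formation of posterior mesoderm and notochord, was 2.36 ± 0.30 (adjusted p = 0.0017), and its levels did not overlap between the regions. t was as high in the LMZ (828 and 758 TPM) and lower in the DMZ (551 and 617 TPM), and VMZ and DMZ were not called different (log2 0.46, adjusted p = 0.68). t2, its neighbouring copy, had 7.52 and 3.51 TPM in the VMZ, against 1.22 and 0.92 TPM in the vegetal mass (2.48 ± 0.71, adjusted p = 0.043). msgn1, a bHLH factor of presomitic mesoderm, had 18.1 and 24.0 TPM in the VMZ, against 9.24 and 16.7 TPM in the vegetal mass (0.85 ± 0.23, adjusted p = 0.023). Within each clutch, then, the VMZ was the higher region for t, t2 and msgn1. The size differed greatly among these genes.

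Among mesoderm TFs that were not called, eomes, snai1 and foxc1 were among those with intervals within a 2-fold change in either direction. eomes, a T-box factor of mesoderm and endoderm, had 569 and 421 TPM in the VMZ, against 645 and 440 TPM in the vegetal mass (log2 -0.02, 95% interval -0.75 to 0.71). snai1, a repressor used in gastrulation movements, had 161 and 109 TPM in the VMZ, against 139 and 127 TPM in the vegetal mass (0.09, interval -0.18 to 0.36). foxc1, a forkhead factor of paraxial mesoderm, had 62.1 and 37.2 TPM in the VMZ, against 61.0 and 66.3 TPM in the vegetal mass (-0.29, interval -0.88 to 0.31). Compared with the animal cap, the VMZ was higher for eomes (log2 5.12, adjusted p = 0.00045), snai1 (2.28, adjusted p = 1.7e-05) and foxc1 (4.73, adjusted p = 0.00017), where 2.47% of all genes were called higher. Most other uncalled members had wider intervals. myf5, a bHLH factor of skeletal muscle, had 23.2 and 6.06 TPM in the VMZ, against 7.95 and 4.00 TPM in the vegetal mass (1.34, interval 0.06 to 2.62, adjusted p = 0.12, or 0.0095 with only the 4 libraries in the fit and 0.017 by DESeq2). meox2, a homeobox factor of somites, was below 1 TPM on average in both regions (-1.63, interval -2.99 to -0.27, adjusted p = 0.077).

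The 2 mesoderm TFs that were lower in the VMZ were snai2 and twist1, which act in neural crest and mesenchyme. snai2 had 0.41 and 0.05 TPM in the VMZ, against 7.61 and 4.30 TPM in the vegetal mass (-4.47 ± 0.56, adjusted p = 0.00047). It was near absent from the VMZ, as from the DMZ (0.29 and 0.18 TPM) and the animal cap (0.18 and 0.12 TPM). twist1 had 0.49 and 0.47 TPM in the VMZ, against 2.87 and 2.89 TPM in the vegetal mass (-2.47 ± 0.47, adjusted p = 0.0047). Leaving out 1 library ended some of these calls. Adjusted p was 0.052 for t without vegetal mass replicate 1 and 0.059 without vegetal mass replicate 2, and 0.064 for twist1 without VMZ replicate 2. For t2 it was 0.26 without VMZ replicate 1, 0.24 without vegetal mass replicate 1 and 0.37 without vegetal mass replicate 2. For msgn1 it was 0.28 without VMZ replicate 1, 0.062 without VMZ replicate 2 and 0.062 without vegetal mass replicate 1.

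Posterior TFs were much higher in the VMZ than in the vegetal mass. Of 11 tested in a list of 15, 7 were higher in the VMZ, 0 were lower and 4 were not called. The median log2 difference was 2.29 (all genes, -0.0086, with 12.7% called in each direction). cdx4 had 131 and 97.8 TPM in the VMZ, against 4.82 and 2.82 TPM in the vegetal mass (5.05 ± 0.39, adjusted p = 0.00015), the largest increase of any named TF with at least 1 TPM. cdx2 had 109 and 65.5 TPM in the VMZ, against 5.70 and 2.35 TPM in the vegetal mass (4.56 ± 0.39, adjusted p = 0.00024). hoxd1, a 3' Hox gene that is activated in ventrolateral mesoderm, had 126 and 66.8 TPM in the VMZ, against 4.24 and 2.66 TPM in the vegetal mass (4.95 ± 0.49, adjusted p = 0.00058). All 3 fell far below the VMZ in the vegetal mass in both clutches. In the LMZ cdx4 had 102 and 66.2 TPM and cdx2 had 74.85 and 46.6 TPM. Neither was called different between VMZ and LMZ. Against the DMZ the vegetal mass was lower as well, as for 16.4% of all genes. The log2 ratio of vegetal mass to DMZ was -3.18 for cdx4, -2.81 for cdx2 and -2.63 for hoxd1 (adjusted p = 0.00081, 0.0015 and 0.0065).

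The third caudal gene differed from the others. cdx1 had 74.6 and 70.7 TPM in the VMZ, against 24.0 and 33.3 TPM in the vegetal mass, a log2 difference of 1.41 (interval 0.30 to 2.51, adjusted p = 0.069, or 0.00025 with only the 4 libraries in the fit). Its vegetal mass level exceeded that of the DMZ (12.7 and 4.72 TPM; 1.65, adjusted p = 0.042), while cdx2 and cdx4 went the other way in that comparison. evx1, an even-skipped homeobox repressor of ventral and posterior mesoderm, had 29.1 and 34.6 TPM in the VMZ, against 14.9 and 12.4 TPM in the vegetal mass (1.302 ± 0.22, adjusted p = 0.0025). In the DMZ evx1 was nearly absent, at 0.78 and 0.48 TPM. meis3, a TALE cofactor of Hox proteins, had 56.5 and 28.1 TPM in the VMZ, against 12.9 and 14.8 TPM in the vegetal mass (1.68 ± 0.27, adjusted p = 0.0033). It was not ventral, with 62.0 and 62.2 TPM in the DMZ and 77.3 and 71.8 TPM in the animal cap. sp5l, a Wnt target gene, was abundant in both, at 1484 and 1441 TPM in the VMZ and 1027 and 938 TPM in the vegetal mass (0.67 ± 0.11, adjusted p = 0.0025). Without vegetal mass replicate 1 the call of meis3 was lost (adjusted p = 0.067), and the other 6 calls held without any 1 of the 4 libraries. hoxb9, a posterior Hox gene, was near 0 in both regions, at 0 and 0.19 TPM in the VMZ, against 0.25 and 0.19 TPM in the vegetal mass.

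**Figure D3:**
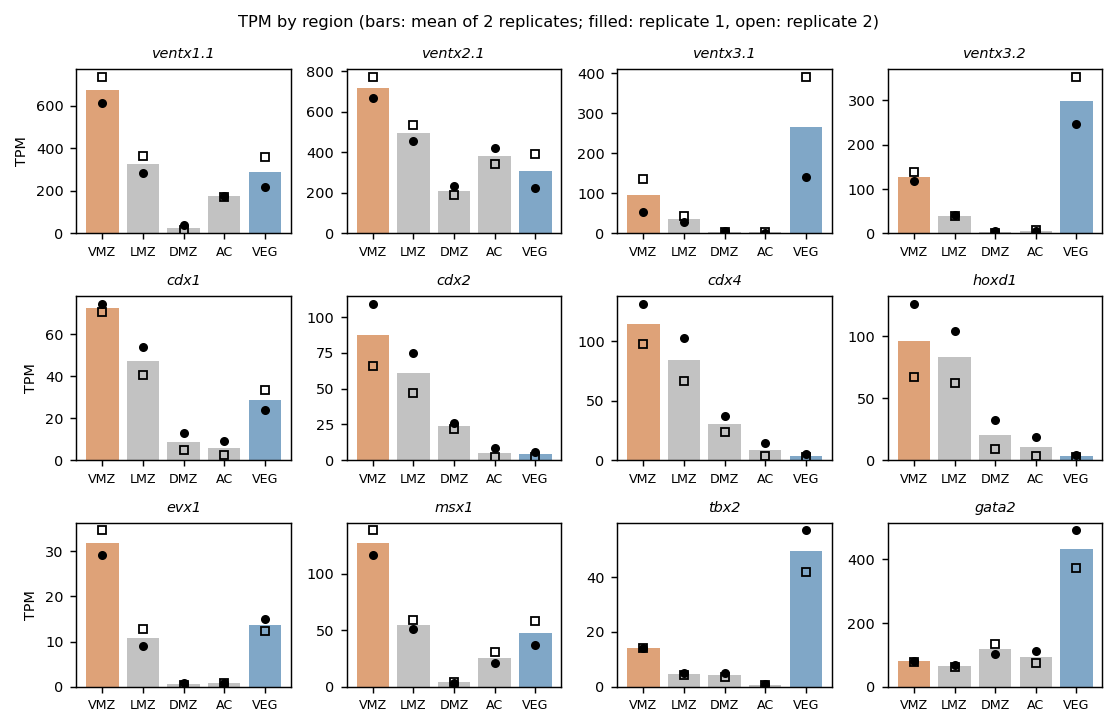
TPM of 12 TFs by region, in the order VMZ, LMZ, DMZ, animal cap (AC) and vegetal mass (VEG), with bars for the mean of 2 replicates and points for each replicate. cdx2, cdx4 and hoxd1 are near the bottom of the scale in the vegetal mass, cdx1, evx1, msx1, ventx1.1 and ventx2.1 keep a lower level there, and ventx3.1, ventx3.2, tbx2 and gata2 are highest there.

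TFs of the ventral BMP list went both ways. All 18 were tested, of which 8 were higher in the VMZ, 6 were lower and 4 were not called. The median log2 difference was -0.35 (all genes, -0.0086, with 12.7% called in each direction). msx1, a homeobox repressor downstream of BMP, had 116 and 138 TPM in the VMZ, against 37.4 and 58.3 TPM in the vegetal mass (1.54 ± 0.13, adjusted p = 5.9e-05). smad7, an inhibitory Smad that dampens BMP and Nodal signalling, had 49.0 and 50.5 TPM in the VMZ, against 29.5 and 14.8 TPM in the vegetal mass (1.29 ± 0.25, adjusted p = 0.0070). smad1, a transducer of BMP signals, had 548 and 640 TPM in the VMZ, against 458 and 381 TPM in the vegetal mass (0.58 ± 0.15, adjusted p = 0.023). None of these genes overlapped between the regions, as was so for most TFs called and 2-fold or more apart.

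The Ventx genes encode homeobox repressors of organizer genes and lie side by side, with no other gene among them, on chromosome 7 of the RefSeq assembly. They share sequence, so reads may have been divided among them, and their separate levels are uncertain. ventx1.1 had 614 and 733 TPM in the VMZ, against 220 and 357 TPM in the vegetal mass (1.33 ± 0.38, adjusted p = 0.046). ventx2.1 had 667 and 771 TPM in the VMZ, against 225 and 391 TPM in the vegetal mass (1.34 ± 0.24, adjusted p = 0.0064). ventx1.2 (1.12 ± 0.26, adjusted p = 0.020) and ventx2.2 (1.31 ± 0.18, adjusted p = 0.00088) were higher in the VMZ as well. The ventx3 genes showed the opposite order. ventx3.1 had 53.9 and 137 TPM in the VMZ, against 142 and 391 TPM in the vegetal mass (-1.37 ± 0.34, adjusted p = 0.024). ventx3.2 had 117 and 139 TPM in the VMZ, against 246 and 352 TPM in the vegetal mass (-1.12, interval -1.97 to -0.26, adjusted p = 0.063). It was called with all 12 libraries in the fit (adjusted p = 0.041) and with only the 4 libraries of the regions (0.00048). The ventx3 genes do not sit together within the run: from 1 end the order is ventx3.2, ventx1.2, ventx3.1, ventx2.2, ventx1.1 and ventx2.1. In the DMZ ventx1.1 (39.3 and 15.3 TPM) and ventx3.2 (5.05 and 0.84 TPM) were low, while ventx2.1 (234 and 189 TPM) stayed near its vegetal mass level.

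Gata and Tbx genes of this list were lower in the VMZ, and the Id genes were split. gata2, a zinc finger factor of ventral mesoderm, blood and epidermis, had 81.5 and 77.4 TPM in the VMZ, against 491 and 373 TPM in the vegetal mass (-2.34 ± 0.22, adjusted p = 0.00023). gata3 had 7.96 and 16.6 TPM in the VMZ, against 42.5 and 31.2 TPM in the vegetal mass (-1.55 ± 0.35, adjusted p = 0.015). tbx2, a T-box repressor, had 14.3 and 14.1 TPM in the VMZ, against 57.1 and 42.1 TPM in the vegetal mass (-1.69 ± 0.15, adjusted p = 6.0e-05). All of these were well above their VMZ level in both vegetal mass libraries. In the DMZ gata2 had 103 and 135 TPM, and gata3 had 7.57 and 5.53 TPM. Neither gata2 nor gata3 was called different between VMZ and DMZ (log2 -0.67 and 0.77, adjusted p = 0.30 and 0.55). tbx3, close to tbx2 in sequence, had 6.38 and 6.04 TPM in the VMZ, against 20.6 and 10.8 TPM in the vegetal mass (-1.17 ± 0.24, adjusted p = 0.0064). id2, an HLH protein that blocks bHLH factors and responds to BMP, had 123 and 194 TPM in the VMZ, against 262 and 402 TPM in the vegetal mass (-0.97 ± 0.10, adjusted p = 0.00014). id3, of the same family, had 611 and 1218 TPM in the VMZ, against 406 and 805 TPM in the vegetal mass (0.69 ± 0.11, adjusted p = 0.0022). id2 and id3 therefore had opposite orders in the same libraries, although replicate 2 exceeded replicate 1 in both regions for each.

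Calls on this list that did not hold without 1 library were those of ventx1.1, ventx1.2, ventx3.1, smad1, smad7, gata3 and tbx3. The lost calls had an adjusted p of 0.16 to 0.28 for ventx1.1 and 0.057 to 0.13 for ventx1.2 over all 4 such fits. For ventx3.1 it was 0.19 without VMZ replicate 1, 0.067 without VMZ replicate 2 and 0.20 without vegetal mass replicate 2. For smad1 it was 0.11 without VMZ replicate 1, 0.13 without VMZ replicate 2 and 0.062 without vegetal mass replicate 2. For gata3 it was 0.099 without VMZ replicate 1 and 0.069 without vegetal mass replicate 1, for tbx3 0.13 without VMZ replicate 1, and for smad7 0.054 without VMZ replicate 2. The calls of msx1, ventx2.1, ventx2.2, gata2, tbx2, id2 and id3 held in all 4.

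Ventral TFs that the regions share were looked for among 31 TFs that were called higher in the VMZ than in the DMZ with at least 1 TPM in the VMZ, where 0.432% of all genes were called higher. The VMZ libraries enter both this choice and the comparison with the vegetal mass, and the DMZ libraries enter both this choice and the comparison of vegetal mass with DMZ, so the splits that follow are descriptions. Of the 31, 22 were higher in the VMZ than in the vegetal mass, 5 were higher in the vegetal mass and 4 were not called. Of all genes, 12.7% were called in each direction, but the 31 were chosen for a high level in the same VMZ libraries. Against the DMZ, 16 of the 31 were higher in the vegetal mass (16.9% of all genes were), 10 were lower (16.4% of all genes were) and 5 were not called. All 9 that were not higher in the VMZ than in the vegetal mass were among those 16. This follows largely from the choice of TFs with a VMZ level above the DMZ, so nothing is read from it. A further 7 of the 16 stepped down, VMZ above vegetal mass and vegetal mass above DMZ, among them msx1, evx1, msgn1, ventx1.1 and ventx1.2. Since the 31 were chosen for a low level in the same DMZ libraries, nothing is read from the 16 or the 10 beside the shares of all genes.

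Among the 16, mesp2, a bHLH factor of segmenting mesoderm, had 5.38 and 2.44 TPM in the VMZ, against 5.01 and 3.27 TPM in the vegetal mass and 1.13 and 0.35 TPM in the DMZ (VMZ to vegetal mass -0.03, interval -0.88 to 0.81). myc, a bHLH factor of growth and proliferation, had 109 and 101 TPM in the VMZ, against 109 and 88.3 TPM in the vegetal mass and 67.1 and 39.2 TPM in the DMZ (0.19, interval -0.13 to 0.52). For mesp2 and myc the interval lay within a 2-fold change in either direction, which was not so for the other uncalled TFs, ventx3.2 and cdx1. The 5 that the vegetal mass had at a higher level were ventx3.1, tbx2, tbx3, id2 and e2f1. Ventral and vegetal levels of tbx2, tbx3 and cdx1 in these libraries had already been reported by the study. e2f1, a cell cycle activator, had 24.8 and 9.74 TPM in the VMZ, against 98.2 and 41.4 TPM in the vegetal mass and 14.3 and 4.42 TPM in the DMZ (-1.94 ± 0.15, adjusted p = 3.4e-05). tbx3 was at 0.45 and 0.16 TPM in the DMZ, so that VMZ and vegetal mass were both far above it. klf17, a Krüppel-like factor, had 230 and 331 TPM in the VMZ, against 148 and 143 TPM in the vegetal mass and 53.2 and 53.6 TPM in the DMZ (1.02 ± 0.14, adjusted p = 0.00085). Its level was highest in the animal cap, at 622 and 744 TPM. There the log2 ratio of VMZ to animal cap was -1.34 (adjusted p = 0.00055), where 1.61% of all genes were called lower.

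The 10 ventral TFs that were lower in the vegetal mass than in the DMZ included cdx4, ets2, hes6.1, tfap2a, tfap2c, dlx3, tp63 and foxh1.2. Of all 31, 15 had their highest mean in the VMZ, 9 in the animal cap and 7 in the vegetal mass. These peaks rank means only, and no call of VMZ against LMZ was required. The list depends on the fit: it held 16 TFs without VMZ replicate 1, 13 without VMZ replicate 2 and 2 without the block.

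**Figure D4:**
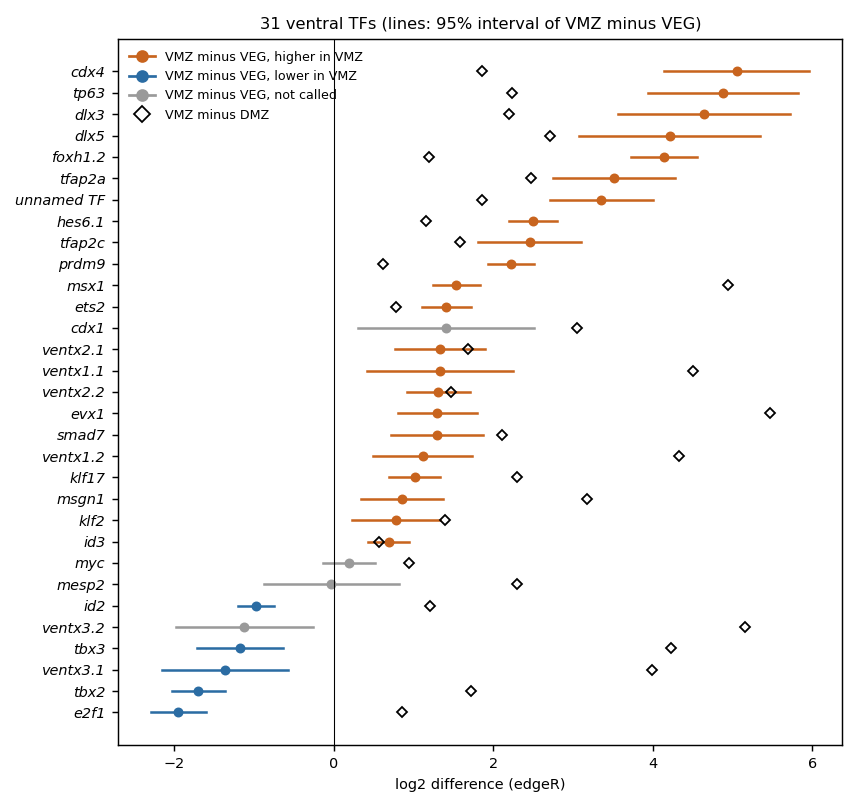
Log2 difference of VMZ to vegetal mass for 31 ventral TFs, with its 95% interval as a line, and of VMZ to DMZ as an open diamond, by which the TFs were chosen. 22 TFs are higher in the VMZ than in the vegetal mass (orange), 5 are lower (blue) and 4 are not called (grey), with mesp2 and myc closest to 0.

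Of the TFs that respond to FGF and other signals, 2 of 7 tested were higher in the VMZ, 0 were lower and 5 were not called (list of 8, median log2 0.42). Of all genes, 12.7% were called in each direction, which also stands beside the Wnt effectors below. etv1, an Ets factor downstream of FGF, had 202 and 204 TPM in the VMZ, against 150 and 126 TPM in the vegetal mass (0.66 ± 0.11, adjusted p = 0.0026). junb, an AP-1 subunit, had 13.2 and 4.29 TPM in the VMZ, against 3.66 and 1.81 TPM in the vegetal mass (1.71 ± 0.29, adjusted p = 0.0027). The lower VMZ value of junb was little above the higher vegetal mass value, as replicate 1 exceeded replicate 2 in both regions. egr1, an immediate-early zinc finger factor, had 3.89 and 2.28 TPM in the VMZ, against 2.91 and 2.01 TPM in the vegetal mass (0.42, interval -0.06 to 0.89). Among 3 tested Wnt effectors in a list of 4 (median log2 -0.05), tcf7 was lower in the VMZ, at 11.9 and 9.08 TPM, against 21.5 and 13.6 TPM in the vegetal mass (-0.63 ± 0.17, adjusted p = 0.024). lef1, also a nuclear partner of beta-catenin, had 38.1 and 21.3 TPM in the VMZ, against 28.3 and 23.6 TPM in the vegetal mass (0.24, interval -0.15 to 0.63). tcf7l1, a Tcf factor that represses Wnt targets in the absence of beta-catenin, had 159 and 205 TPM in the VMZ, against 219 and 169 TPM in the vegetal mass (-0.05, adjusted p = 0.92). Its order was opposite in the 2 clutches, and it was called higher in the VMZ without vegetal mass replicate 1 (0.48, adjusted p = 0.012) and lower without vegetal mass replicate 2 (-0.47, adjusted p = 0.017). The call of tcf7 was lost without VMZ replicate 1 (adjusted p = 0.21), VMZ replicate 2 (0.12) or vegetal mass replicate 1 (0.098), and those of etv1 and junb were not lost.

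Hes and Hey genes encode bHLH repressors, many of them targets of Notch. Of 13 tested in a list of 16, 7 were higher in the VMZ, 2 were lower and 4 were not called. The median log2 difference was 0.81 (all genes, -0.0086, with 12.7% called in each direction). hes6.1 had 206 and 226 TPM in the VMZ, against 32.6 and 51.0 TPM in the vegetal mass (2.50 ± 0.13, adjusted p = 4.5e-06). hes9.1 had 12.5 and 21.5 TPM in the VMZ, against 1.37 and 2.69 TPM in the vegetal mass (3.19 ± 0.30, adjusted p = 9.3e-05). hes3.1 had 10.3 and 13.2 TPM in the VMZ, against 1.49 and 1.95 TPM in the vegetal mass (2.85 ± 0.27, adjusted p = 9.7e-05). hes6.1 had its highest mean in the VMZ, whereas hes3.1 was higher in the animal cap (32.5 and 35.1 TPM) than in the VMZ. In the LMZ hes6.1 had 161 and 190 TPM, and VMZ and LMZ were not called different. hes4, hes5.1, hes6.2 and hes3.3 were the others called higher, by 0.77 to 3.18 on the log2 scale. hes1 had 17.1 and 7.95 TPM in the VMZ, against 32.2 and 22.0 TPM in the vegetal mass (-1.04 ± 0.27, adjusted p = 0.021). hes2 had 2.80 and 3.56 TPM in the VMZ, against 17.6 and 8.03 TPM in the vegetal mass (-1.98 ± 0.47, adjusted p = 0.016). hes7.2, by contrast, was close to level, with 128 and 273 TPM in the VMZ and 149 and 319 TPM in the vegetal mass (-0.13, interval -0.37 to 0.11). Calls lost without VMZ replicate 2 were those of hes1 (adjusted p = 0.17), hes2 (0.095), hes4 (0.12), hes5.1 (0.066) and hes3.3 (0.12). hes1 was also lost without either vegetal mass library (0.11 and 0.091), hes2 without VMZ replicate 1 (0.14) or vegetal mass replicate 1 (0.078), and hes3.3 without vegetal mass replicate 2 (0.073).

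Effectors and modulators of Nodal signalling were mostly either called higher in the VMZ or not called. Of 9 tested, 4 were higher, 1 was lower and 4 were not called. The median log2 difference was 0.0037 (all genes, -0.0086, with 12.7% called in each direction). foxh1.2, one of the forkhead partners of Smad2, had 114 and 216 TPM in the VMZ, against 7.96 and 11.4 TPM in the vegetal mass (4.14 ± 0.18, adjusted p = 1.9e-06). foxh1, the other, had 48.0 and 44.2 TPM in the VMZ, against 94.97 and 39.6 TPM in the vegetal mass (-0.36, interval -0.93 to 0.21). The VMZ thus exceeded the vegetal mass in foxh1.2, while foxh1 was expressed in both regions with no call. Animal and marginal zone levels of foxh1.2 in these libraries had already been reported by the study. smad4.1, a common Smad, had 131 and 130 TPM in the VMZ, against 65.1 and 66.6 TPM in the vegetal mass (1.08 ± 0.14, adjusted p = 0.00050). smad3, a receptor-regulated Smad, was lower in the VMZ, at 38.7 and 25.7 TPM, against 68.7 and 42.9 TPM in the vegetal mass (-0.69 ± 0.14, adjusted p = 0.0057). smad2 had 8.87 and 5.92 TPM in the VMZ, against 9.62 and 6.17 TPM in the vegetal mass (0.0037, interval -0.39 to 0.40).

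The pou5f3 genes are related copies and relatives of mammalian Oct4 that hold back differentiation. Reads may have been divided among them, which was not tested. pou5f3.2 had 2031 and 2838 TPM in the VMZ, against 949 and 1098 TPM in the vegetal mass (1.32 ± 0.12, adjusted p = 8.6e-05). pou5f3.3 had 1216 and 1289 TPM in the VMZ, against 856 and 913 TPM in the vegetal mass (0.60 ± 0.13, adjusted p = 0.0086). pou5f3.1 had 159 and 143 TPM in the VMZ, against 255 and 143 TPM in the vegetal mass (-0.27, interval -0.68 to 0.14). Both abundant copies were lower in the vegetal mass than in the VMZ, and the least abundant was not called. Without VMZ replicate 1 the calls of pou5f3.3 (adjusted p = 0.12) and smad3 (0.087) were lost. Without vegetal mass replicate 2, pou5f3.1 (log2 -0.57, adjusted p = 0.0086) and foxh1 (-0.78, 0.0019) were called lower in the VMZ.

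Endodermal TFs made the reverse pattern. All 17 of the list were tested, of which 0 were higher in the VMZ, 14 were lower and 3 were not called. The 14 include uncx and gpbp1, whose high vegetal levels in these libraries the study had already reported. The median log2 difference was -2.82 (all genes, -0.0086, with 12.7% called in each direction). The median member stood in the VMZ at 16.1% of its vegetal mass level in replicate 1 and at 10.4% in replicate 2. sox17a, an HMG-box factor that drives endoderm formation, had 193 and 116 TPM in the VMZ, against 1233 and 1470 TPM in the vegetal mass (-3.13 ± 0.37, adjusted p = 0.0015). gata4 had 50.7 and 44.8 TPM in the VMZ, against 600 and 671 TPM in the vegetal mass (-3.65 ± 0.41, adjusted p = 0.0011). gata6 had 83.8 and 71.3 TPM in the VMZ, against 487 and 423 TPM in the vegetal mass (-2.46 ± 0.11, adjusted p = 1.9e-06). gata5, the third endodermal Gata factor, had 12.5 and 17.5 TPM in the VMZ, against 109 and 124 TPM in the vegetal mass (-2.88 ± 0.21, adjusted p = 2.4e-05). No library of 1 region reached the range of the other for any of these, as for 110 of the 119 TFs 2-fold or more lower.

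Other TFs of the endoderm list followed. hhex, a homeobox factor of anterior endoderm, had 15.3 and 8.39 TPM in the VMZ, against 394 and 238 TPM in the vegetal mass (-4.64 ± 0.38, adjusted p = 0.00025), and it was high in the DMZ too (146 and 192 TPM). foxa1, a pioneer forkhead factor, had 14.8 and 7.47 TPM in the VMZ, against 79.7 and 71.7 TPM in the vegetal mass (-2.74 ± 0.25, adjusted p = 0.00012). foxa2 had 2.68 and 1.80 TPM in the VMZ, against 22.7 and 12.6 TPM in the vegetal mass (-2.86 ± 0.33, adjusted p = 0.00036). The same order held in each clutch for every one of these genes, as it did for all 179 TFs called lower. sox7, a sox17 relative, had 12.7 and 13.4 TPM in the VMZ, against 107 and 321 TPM in the vegetal mass (-3.93 ± 0.64, adjusted p = 0.0061). gpbp1, a GC-rich promoter binding protein, had 28.0 and 26.3 TPM in the VMZ, against 174 and 187 TPM in the vegetal mass (-2.65 ± 0.16, adjusted p = 9.3e-06). prdm1, a zinc finger repressor, had the smallest called difference of the list, with 61.5 and 56.7 TPM in the VMZ and 174 and 149 TPM in the vegetal mass (-1.35 ± 0.13, adjusted p = 9.2e-05).

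Of the 3 that were not called, vegt was by far the most abundant. This T-box factor, whose maternal mRNA lies at the vegetal pole, had 2147 and 1684 TPM in the VMZ, against 2542 and 2880 TPM in the vegetal mass (-0.45, interval -1.48 to 0.59) and 198 and 53.7 TPM in the animal cap. Its interval allows the vegetal mass to be more than 2-fold higher. hnf4a, a nuclear receptor of liver and gut, had 3.39 and 0.97 TPM in the VMZ, against 5.32 and 1.11 TPM in the vegetal mass (-0.40, adjusted p = 0.50). Calls lost without VMZ replicate 1 or VMZ replicate 2 were those of sox7 (adjusted p = 0.072 and 0.071), sox17b.1 (0.068 and 0.081) and sox17b.2 (0.054 and 0.052), and the other 11 held in all 4 fits without 1 library. Reads may have been divided between the sox17b copies, which are therefore uncertain as separate genes.

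Mix and Bix genes, homeobox genes switched on by Nodal and vegt in mesendoderm, formed a shallower step. Of 9 tested in a list of 10, 5 were lower in the VMZ, 0 were higher and 4 were not called. The median log2 difference was -1.68 (all genes, -0.0086, with 12.7% called in each direction). mixer had 1678 and 1049 TPM in the VMZ, against 4494 and 4345 TPM in the vegetal mass (-1.68 ± 0.34, adjusted p = 0.013). mix1 had 548 and 543 TPM in the VMZ, against 863 and 1167 TPM in the vegetal mass (-0.82, interval -1.83 to 0.19, adjusted p = 0.21, or 0.0033 with only the 4 libraries in the fit). sebox had 154 and 137 TPM in the VMZ, against 147 and 209 TPM in the vegetal mass (-0.20, interval -0.94 to 0.54). Thus mixer differed, mix1 pointed the same way without passing the test, and sebox lay within a 2-fold change in either direction. bix1.1 (-1.69 ± 0.39), bix1.2 (-1.95 ± 0.40) and bix1.3 (-1.82 ± 0.30) were lower in the VMZ, and reads may have been divided among these copies. mxtx1 differed greatly between clutches, with 115 and 8.13 TPM in the VMZ and 411 and 106 TPM in the vegetal mass (-2.64 ± 0.43, adjusted p = 0.0049). Its VMZ level in replicate 1 exceeded its vegetal mass level in replicate 2, so the regions overlapped across clutches but not within them. Vegetal and marginal zone levels of sebox and mxtx1 in these libraries had already been reported by the study.

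Several of these calls were not kept in every fit without 1 library. The call of mixer was lost without VMZ replicate 1 (adjusted p = 0.11), VMZ replicate 2 (0.098) or vegetal mass replicate 2 (0.15), and that of bix1.2 without the same libraries (0.11, 0.094 and 0.059). bix1.1 was lost without VMZ replicate 1 (0.13) or VMZ replicate 2 (0.14), and bix1.3 without VMZ replicate 1 (0.055). The call of mxtx1 held in all 4 fits without 1 library and was lost with only the 4 libraries in the fit (0.15).

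Most blood and vessel TFs that could be tested were lower in the VMZ. Of 6 tested in a list of 9, 1 was higher in the VMZ, 4 were lower and 1 was not called. The median log2 difference was -1.21 (all genes, -0.0086, with 12.7% called in each direction). Only ets2, a widely used Ets factor, was higher, with 359 and 286 TPM in the VMZ and 155 and 107 TPM in the vegetal mass (1.41 ± 0.14, adjusted p = 0.00012). etv2, an Ets factor that specifies vessel and blood precursors, had 1.21 and 1.19 TPM in the VMZ, against 15.0 and 11.2 TPM in the vegetal mass (-3.37 ± 0.50, adjusted p = 0.0013). It was also high in the DMZ, at 12.6 and 27.9 TPM. ets1 had 38.9 and 59.9 TPM in the VMZ, against 80.9 and 102 TPM in the vegetal mass (-0.81 ± 0.13, adjusted p = 0.0017). runx1, a regulator of blood stem cells, had 1.95 and 0.18 TPM in the VMZ, against 4.38 and 1.68 TPM in the vegetal mass (-1.60 ± 0.44, adjusted p = 0.026). tal1, which with gata1 drives red blood cell formation, was below 1 TPM in all 4 libraries, at 0.32 and 0.51 TPM in the VMZ and 0.33 and 0.43 TPM in the vegetal mass. gata1 was listed at 0 and 0 TPM in the VMZ, against 0 and 0.11 TPM in the vegetal mass. fli1 was lower in the VMZ too (-3.48 ± 0.82, adjusted p = 0.016) but stayed near 1 TPM or below. The call of runx1 was lost without VMZ replicate 1 (adjusted p = 0.064), VMZ replicate 2 (0.13) or vegetal mass replicate 2 (0.079), and that of fli1 without VMZ replicate 2 (0.075).

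Organizer markers separated the regions as strongly as endodermal TFs did. Of 10 tested, 8 were lower in the VMZ and 2 were higher. The median log2 difference was -3.60 (all genes, -0.0086, with 12.7% called in each direction). gsc, a homeobox repressor of the organizer, had 6.48 and 3.55 TPM in the VMZ, against 160 and 262 TPM in the vegetal mass (-5.22 ± 0.47, adjusted p = 0.00040). otx2, a homeobox factor of head and anterior endoderm, had 14.7 and 5.80 TPM in the VMZ, against 432 and 350 TPM in the vegetal mass (-5.14 ± 0.49, adjusted p = 0.00052). sia1, the maternal Wnt target that turns on gsc, had 2.13 and 0.53 TPM in the VMZ, against 59.5 and 39.4 TPM in the vegetal mass (-5.02 ± 0.63, adjusted p = 0.0012). In the DMZ otx2 had 410 and 453 TPM, and sia1 had 30.4 and 36.0 TPM, below its vegetal mass level in both clutches. dmbx1, a homeobox gene of the developing brain, had 0.61 and 0.70 TPM in the VMZ, against 47.7 and 21.3 TPM in the vegetal mass (-5.61 ± 0.38, adjusted p = 1.5e-05). The study had already reported its dorsal and vegetal levels in these libraries.

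The 2 that were higher in the VMZ were not, a homeobox gene of the notochord, and foxd4l1.1, a forkhead gene of neural ectoderm. not had 185 and 149 TPM in the VMZ, against 49.7 and 67.6 TPM in the vegetal mass (1.58 ± 0.27, adjusted p = 0.0056). foxd4l1.1 had 75.4 and 31.7 TPM in the VMZ, against 11.4 and 7.81 TPM in the vegetal mass (2.53 ± 0.36, adjusted p = 0.0027). In the DMZ both exceeded their vegetal mass level, at 251 and 231 TPM for not and 216 and 266 TPM for foxd4l1.1. Dorsal and ventral vegetal cells were pooled, so the share of each in these levels was not tested. The calls of lhx1 (-1.96 ± 0.41) and foxa4 (-1.62 ± 0.40) were lost in every fit without 1 library, with adjusted p of 0.080 to 0.15 for lhx1 and 0.10 to 0.24 for foxa4. hesx1 was lost without VMZ replicate 1 (0.089), VMZ replicate 2 (0.22) or vegetal mass replicate 2 (0.061), and foxd4l1.1 without vegetal mass replicate 1 (0.077) or vegetal mass replicate 2 (0.099).

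Ectodermal TFs were prominent among those higher in the VMZ. Of 19 tested markers, 11 were higher in the VMZ, 3 were lower and 5 were not called. The median log2 difference was 2.25 (all genes, -0.0086, with 12.7% called in each direction). grhl3, a grainyhead factor of epidermis, had 207 and 208 TPM in the VMZ, against 16.4 and 4.67 TPM in the vegetal mass (4.46 ± 0.47, adjusted p = 0.00089). tfap2a, an AP-2 factor of epidermis and neural crest, had 322 and 551 TPM in the VMZ, against 43.0 and 32.5 TPM in the vegetal mass (3.51 ± 0.32, adjusted p = 0.00042). Both had still higher levels in the animal cap, at 431 and 443 TPM for grhl3 and 531 and 854 TPM for tfap2a. foxi1, a forkhead factor of ionocytes and ectoderm, had 14.9 and 24.3 TPM in the VMZ, against 1.17 and 1.37 TPM in the vegetal mass (4.01 ± 0.52, adjusted p = 0.0019) and 141 and 90.2 TPM in the animal cap. dlx3, a homeobox factor of epidermis, had 5.22 and 20.2 TPM in the VMZ, against 0.13 and 0.97 TPM in the vegetal mass (4.65 ± 0.48, adjusted p = 0.00016). tp63, the p53 relative of basal epidermis, had 6.39 and 3.02 TPM in the VMZ, against 0.26 and 0.06 TPM in the vegetal mass (4.88 ± 0.42, adjusted p = 5.7e-05). foxi1 and dlx3 were lower in the VMZ than in the animal cap (log2 -2.66 and -1.62, adjusted p = 0.012 and 0.014), where 1.61% of all genes were called lower.

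Neural ectoderm markers were mixed. sox2, an HMG-box factor of neural plate and pluripotent cells, had 150 and 172 TPM in the VMZ, against 7.63 and 9.19 TPM in the vegetal mass (4.36 ± 0.18, adjusted p = 1.7e-06). sox3 had 773 and 1229 TPM in the VMZ, against 247 and 175 TPM in the vegetal mass (2.25 ± 0.31, adjusted p = 0.0024). lhx5, a LIM homeobox factor, had 33.7 and 71.4 TPM in the VMZ, against 3.13 and 5.29 TPM in the vegetal mass (3.69 ± 0.18, adjusted p = 2.3e-06). All of these were higher in the DMZ or animal cap than in the VMZ by mean. The Iroquois homeobox genes irx1 (-1.65 ± 0.28) and irx3 (-1.95 ± 0.38) were lower in the VMZ. tead2, which binds DNA for the Hippo pathway's Yap, had 66.5 and 82.4 TPM in the VMZ, against 8.29 and 6.68 TPM in the vegetal mass (3.37 ± 0.20, adjusted p = 1.2e-05) and 125 and 140 TPM in the animal cap. Animal and marginal zone levels of tead2 in these libraries had already been reported by the study. How much ectodermal tissue the VMZ pieces held was not tested. foxi1 was not called without vegetal mass replicate 1 (adjusted p = 0.066) or vegetal mass replicate 2 (0.086), and foxi2 was not called without VMZ replicate 1 (0.062), VMZ replicate 2 (0.25) or vegetal mass replicate 2 (0.20). irx1 was not called without vegetal mass replicate 1 (0.061), nor irx3 without vegetal mass replicate 2 (0.11).

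**Figure D5:**
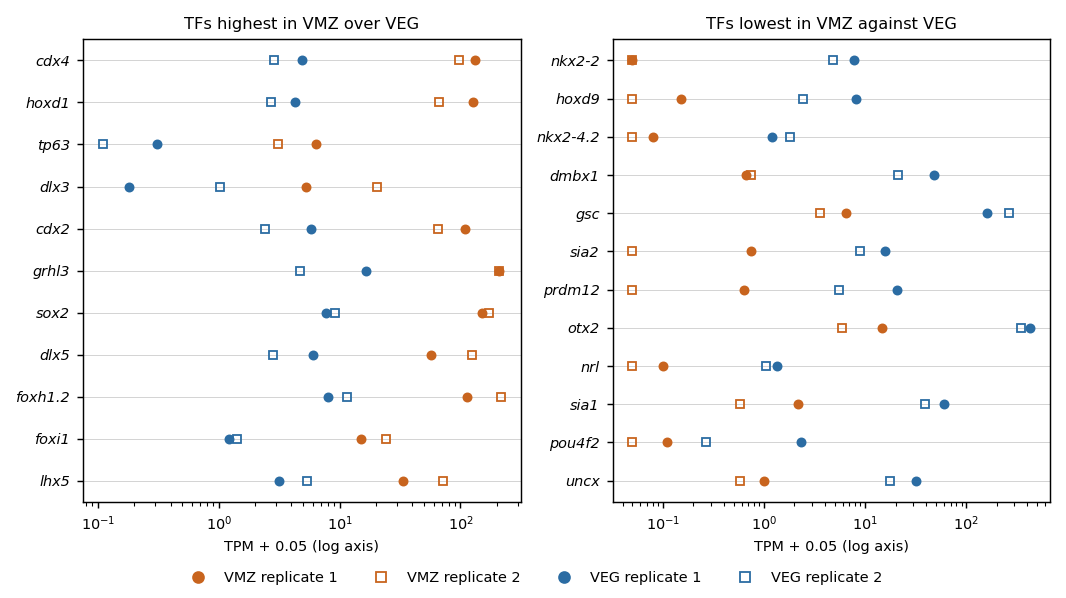
TPM, with 0.05 TPM added, on a log axis, of named TFs with the largest positive (left) and the largest negative (right) log2 differences of VMZ to vegetal mass, by library. In every row the VMZ values (orange, circles for replicate 1 and squares for replicate 2) lie apart from those of the vegetal mass (blue), and the VMZ values of nkx2-2 are 0 and 0 TPM.

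Among named TFs that changed most, the 12 with the largest increase in the VMZ included cdx4, hoxd1, tp63, dlx3, cdx2, grhl3, sox2, dlx5, foxh1.2, foxi1 and lhx5. The 12 with the largest decrease included gsc, otx2, sia1, dmbx1 and uncx, together with low-level homeobox genes. uncx, a paired-type homeobox gene of somites, had 0.95 and 0.53 TPM in the VMZ, against 31.8 and 17.4 TPM in the vegetal mass (-4.96 ± 0.40, adjusted p = 4.3e-05), and stayed below 1 TPM in the DMZ, LMZ and animal cap. sia2 had 0.70 and 0 TPM in the VMZ, against 15.5 and 8.85 TPM in the vegetal mass (-5.17 ± 0.82, adjusted p = 0.0018). prdm12, a zinc finger factor, had 0.59 and 0 TPM in the VMZ, against 20.7 and 5.46 TPM in the vegetal mass (-5.17 ± 0.70, adjusted p = 0.0011). In the LMZ and animal cap libraries none of uncx, sia2 and prdm12 exceeded 1.28 TPM, while in the DMZ sia2 had 1.95 and 0.67 TPM and prdm12 had 3.18 and 3.07 TPM.

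For others the VMZ held too few counts for a fitted fold. nkx2-2, a homeobox factor of floor plate and endoderm, had 0 counts in both VMZ libraries and 201 in the vegetal mass, or 0 and 0 TPM against 7.71 and 4.72 TPM. Against a floor of 3 counts over the VMZ pair, it was at least 65.8-fold lower in the VMZ. hoxd9 had 1 count in the VMZ against 98 in the vegetal mass, a ratio of 96.2 between vegetal mass and VMZ after scaling to the library totals (95% interval 16.9 to 3840). nkx2-4.2 had 1 count in the VMZ against 72 (ratio 70.7, interval 12.3 to 2830), nrl 1 against 42 (41.2, interval 7.01 to 1670) and pou4f2 2 against 83 (40.7, interval 10.9 to 342). These intervals are exact binomial ones and cover counting error only. By library, vegetal mass counts were 82 and 16 for hoxd9, 36 and 36 for nkx2-4.2, 28 and 14 for nrl and 78 and 5 for pou4f2. Their VMZ counts all came from replicate 1. hoxd9 was not called without VMZ replicate 1 (adjusted p = 0.062), nrl without VMZ replicate 1 (0.11) or VMZ replicate 2 (0.069), and pou4f2 without VMZ replicate 1 (0.12) or vegetal mass replicate 1 (0.072).

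DNA-binding domain families of the catalogue differed in how their members split, given here as counts with no test. Of 122 tested homeobox TFs, 20 (16.4%) were higher in the VMZ and 39 (32%) were lower, beside 14.9% and 19.6% of all TFs tested. Of 71 HLH TFs, 21 (29.6%) were higher and 14 (19.7%) were lower. Of 266 C2H2 zinc finger TFs, 23 (8.65%) were higher and 61 (22.9%) were lower. Among 41 HMG-box TFs, 9 were higher and 7 lower, and among 38 forkhead TFs, 7 were higher and 5 lower. Of 13 Ets TFs, 6 were higher and 4 were lower. Of 11 GATA domain TFs, 0 were higher and 5 were lower. Of 33 nuclear receptor (zf-C4) TFs, 3 were higher and 0 were lower. T-box TFs split 2 higher and 3 lower of 11, with t, t2, tbx2 and tbx3 among them.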

How the data were processed

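RNA of 5 dissected regions and of whole embryos was sequenced in 12 libraries, 2 per group. The authors mapped 50-bp reads with RSEM 1.2.12 to the v9.0 assembly and deposited expected counts, which are estimates that share a read among the genes it matches, and TPM, which corrects them for length and depth. No use of strand was stated, which leaves antisense and overlapping genes uncertain.

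Expected counts were rounded to whole numbers, filtered by edgeR's filterByExpr, TMM-scaled and fitted in edgeR 4.0.16 (robust glmQLFit, then glmQLFTest) in 1 model over the 10 region libraries, with the replicate as a block. Scaling by library size in place of TMM moved the median log2 difference of all genes from -0.0086 to -0.12. The replicate pairs the samples, since the study repeated the dissection in a different clutch, and the deviations of VMZ and vegetal mass from their group means had a correlation of 0.762 across genes (0.663 to 0.826 over 15 pairs of groups). Replicates are pools of embryos from 2 clutches. The block takes out what is common to a clutch, so p-values do not measure the whole spread between these pools. They measure the spread left among the 10 region libraries, which is how far region differences vary between the 2 clutches. The 95% intervals of log2 differences come from the same fit.

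Named TFs are the members of 12 lists, the 12 with the largest log2 difference in each direction (called, at least 1 TPM in the higher region, same direction in both clutches), uncalled ventral TFs and tead2. TFs were matched by identifier to the catalogue. Some members are counted in their lists but not reported singly here. Members and lists were chosen with earlier results of these data known. The alternatives were DESeq2 1.42.0, limma 3.58.1 on log2(TPM + 0.1) or log2(TPM + 1), no TMM, no filter, other sets of libraries, no block, and each library left out. Each clutch was also taken alone as a log2 ratio of TPM, with no fit and no p-value. The study's own EBSeq was not used here. The edgeR and DESeq2 fits were tested on simulated counts. Software was R 4.3.3 and Python 3.11.15 with matplotlib 3.10.9, scipy 1.17.1, pandas 2.3.3 and numpy 2.4.6.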

Additional observations from a re-analysis of the deposited data

How the results depend on the processing

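No TF called in 1 direction in the report was called in the other under the alternatives run here. With no replicate block, which leaves the difference between clutches in the error, 179 genes were higher and 163 lower in the VMZ, with 27 TFs higher and 31 lower. These 27 and 31 TFs were all 2-fold or more apart, and all are among the calls with the block. Without the block 2 ventral TFs were left, with 0 higher in the VMZ, 0 higher in the vegetal mass and 2 not called. The number of uncalled ventral TFs, 4 in the report, was 8 by DESeq2, 7 by limma on log2(TPM + 1) and 8 on log2(TPM + 0.1), and no value came from the fit of only the 4 libraries, which holds no DMZ. A ratio of 4 with a mean of 10 TPM left 25 TFs higher and 38 lower. Without 1 library, genes higher ranged from 853 to 2688 and genes lower from 756 to 2453, TFs higher from 76 to 200 and lower from 86 to 172, and TFs 2-fold or more apart from 50 to 96 higher and 73 to 129 lower. The lone library left was assumed to vary like the other groups. Ventral TFs then numbered 13 to 46, with 5 to 28 higher in the VMZ, 2 to 7 higher in the vegetal mass and 5 to 12 not called. Among 118 TFs named in the text and tested, the direction turned only for ones not called in the report. tcf7l1 was at 0.030 with no block and 0.019 with only the 4 libraries, and mesp2 was at 0.0026 and 0.0092 in those fits, while smad2 was at -0.10 by library size, -0.078 and -0.087 by limma with 1 and 0.1 TPM added, and snai1 at -0.021, -0.00089 and -0.0011. With 1 clutch left out no model was fitted. The value was then the log2 ratio of VMZ to vegetal mass TPM in the other clutch, with no TMM scaling. Over these TPM ratios and the fits without 1 library together, log2 differences ran from -0.82 to 0.014 for vegt, -0.62 to 0.13 for sebox, -0.42 to 0.21 for mesp2, -0.47 to 0.48 for tcf7l1, -0.12 to 0.040 for smad2, -0.044 to 0.50 for tal1, -0.83 to 0.025 for foxc1, -0.18 to 0.088 for eomes, -0.68 to 0.090 for pou5f3.1, -0.22 to 0.29 for snai1, -0.65 to 0.056 for hnf4a and -0.99 to 0.16 for foxh1. Of the 118, calls were lost for 62 with no block, 9 with no filter, 3 by library size, 2 by DESeq2, 5 and 9 by limma with 1 and 0.1 TPM added, 7 with only the 4 libraries and 16 to 27 without 1 library. Gained calls were those of cdx1, mix1, myf5 and ventx3.2 with only the 4 libraries, of myf5 by DESeq2 and without VMZ replicate 2, of ventx3.2 with all 12 libraries, and of foxh1, pou5f3.1 and tcf7l1 without vegetal mass replicate 2. tcf7l1 was also called, in the other direction, without vegetal mass replicate 1. Why calls were lost or gained was not tested.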

Other observations

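Among TFs in none of the lists, picked here after their values were seen, several with at least 10 TPM differed between the regions. Lower in the VMZ were crx, an otx2 relative (32.6 TPM on average in the VMZ, against 395 TPM in the vegetal mass, log2 -3.53, adjusted p = 0.0012), and osr2, a zinc finger factor of kidney (91.1 TPM in the VMZ, against 266 TPM in the vegetal mass, -1.46, adjusted p = 0.00040). Higher in the VMZ were xbp1, the bZIP factor of the unfolded protein response (384 TPM in the VMZ, against 74.0 TPM in the vegetal mass, 2.47, adjusted p = 5.3e-06), zeb2, a zinc finger repressor known for a role in neural ectoderm (13.4 TPM in the VMZ, against 3.63 TPM in the vegetal mass, 1.87, adjusted p = 0.016) and sall1, a spalt zinc finger factor (327 TPM in the VMZ, against 171 TPM in the vegetal mass, 1.04, adjusted p = 0.00040).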
